A study of Mus musculus with 6 samples.

Results

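The ErbB receptors and the ligands of the EGF family were followed across the transcriptome of 6 breast tumors. The set was chosen by family membership and not by its values, and holds 10 of the 18460 genes listed in at least 1 tumor. It comprises 4 receptors (*Egfr*, *Erbb2*, *Erbb3* and *Erbb4*) and 6 ligands (*Areg*, *Ereg*, *Hbegf*, *Tgfa*, *Egf* and *Nrg1*). All mice were Balb/c, carried the PyMT transgene and a Rag1 deletion (PyMTtg;Rag1KO), and received CD4+ T cells when they were 4 wk old. PyMT is the polyoma middle T antigen, a membrane-bound viral protein that drives mammary tumors from early age, and Rag1KO mice make no T or B cells of their own. The 3 control tumors came from such mice without a further transgene. The 3 test tumors came from mice that also carried K14-TSLPtg (K14-TSLPtg;PyMTtg;Rag1KO), in which the keratin 14 promoter directs the cytokine thymic stromal lymphopoietin (TSLP) to keratinocytes. Tumors were taken at the endpoint, between 18 and 20 wk.

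ErbB receptors are tyrosine kinases that sit in the cell membrane and act in pairs. EGF, TGF-alpha and amphiregulin (*Areg*) bind EGFR, heparin-binding EGF (*Hbegf*) and epiregulin (*Ereg*) bind EGFR and ERBB4, and neuregulin 1 (*Nrg1*) binds ERBB3 and ERBB4. ERBB2 has no known ligand and ERBB3 has little kinase activity of its own, so both work through their partners. In the mammary gland, EGFR and amphiregulin drive the growth of ducts in puberty, whereas ERBB4 and neuregulins act in the lobules that make milk. ERBB2 (HER2) is the receptor that is amplified in a subset of human breast cancers. Ligands are made as membrane proteins and are cut free by proteases, so an RNA level gives neither the amount of free ligand nor the activity of a receptor. Middle T antigen itself recruits Src family kinases, Shc and PI3K, which ErbB receptors also use.

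Total expected counts, the estimated reads per gene summed over a library, ran from 8373390 to 9449565. The 13706 genes that passed the filter on low counts were tested together with edgeR's quasi-likelihood test, and none passed an adjusted p of 0.05 (percent called 0). The same test gave an unadjusted p under 0.05 for 1153 genes (8.41%), and for 1642 genes (12.0%) the levels of the test and control tumors did not overlap. The common biological coefficient of variation, the spread between tumors of a group as a share of the mean, was 0.434. Control replicate 2 was closer to the test tumors than to the other controls. Its log2 levels correlated at 0.874 and 0.908 with the other controls and at 0.921, 0.927 and 0.935 with the test tumors, across genes, which are not independent replicates. The test tumors correlated at 0.887, 0.909 and 0.921 with each other, and control replicate 1 at 0.829 to 0.881 with them. Luminal epithelial markers (9 of 10 higher on average in test) summed to 2925 to 3036 FPKM in the test tumors and 1019 to 2282 FPKM in the controls. FPKM is the level per length and depth. Basal and myoepithelial markers (1 of 8 higher in test) summed to 244.1 to 459.6 FPKM in test and 198.6 to 1189 FPKM in control tumors. Adipocyte markers (4 of 5 higher) summed to 22.9 to 313.7 against 17.8 to 36.9 FPKM, and both of these lists overlapped between the groups. Skeletal muscle markers (6 of 6 higher in test) summed to 57.0 to 427.2 against 2.72 to 94.3 FPKM, and macrophage markers (0 of 7 higher) to 160.2 to 357.8 against 267.2 to 536.6 FPKM. T cell markers summed to 2.57 to 4.73 FPKM in test and 2.94 to 3.59 FPKM in control tumors, with *Trac* not listed in any tumor and *Cd3g* at 0 in some. No luminal marker was at 0 in any tumor. The same held for the basal, fibroblast, endothelial and macrophage markers, so this cannot check the label of breast tumor. The part of these tissue differences in the results below was not tested. In bulk tumor RNA, fewer cells of a type and less RNA per cell cannot be told apart. *Tslp* had 2, 2 and 3 counts in the controls and 12, 7 and 2 in the test tumors, so test replicate 3 did not differ from the controls. The K14 promoter directs the transgene to keratinocytes, but *Krt14* itself was listed in all 6 tumors. Whether the transgene is expressed in the tumors was not tested, and with such low counts tumor RNA is a weak check of this label.

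By median FPKM over the 6 tumors, the 3 receptors *Egfr* (12.8), *Erbb2* (11.2) and *Erbb3* (10.7) led the family. They were followed by *Tgfa* (5.75), *Hbegf* (3.76), *Areg* (3.38) and *Nrg1* (2.23), and then by *Egf* (0.600), *Ereg* (0.0950) and *Erbb4* (0.0300). The range over tumors overlapped between each gene and the next in this order. Within tumors, *Tgfa* exceeded *Hbegf* in all 6, and every other neighboring pair changed its order in at least 1 tumor. The 4 receptors summed to 28.9, 43.5 and 32.2 FPKM in the control tumors and to 54.9, 18.6 and 36.0 FPKM in the test tumors. The FPKM of all listed genes summed to 628598 in test replicate 2 and to between 462579 and 507678 in the other tumors. FPKM values are therefore not on a fully shared scale between tumors, which limits such comparisons most for test replicate 2.

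**Figure D1:**
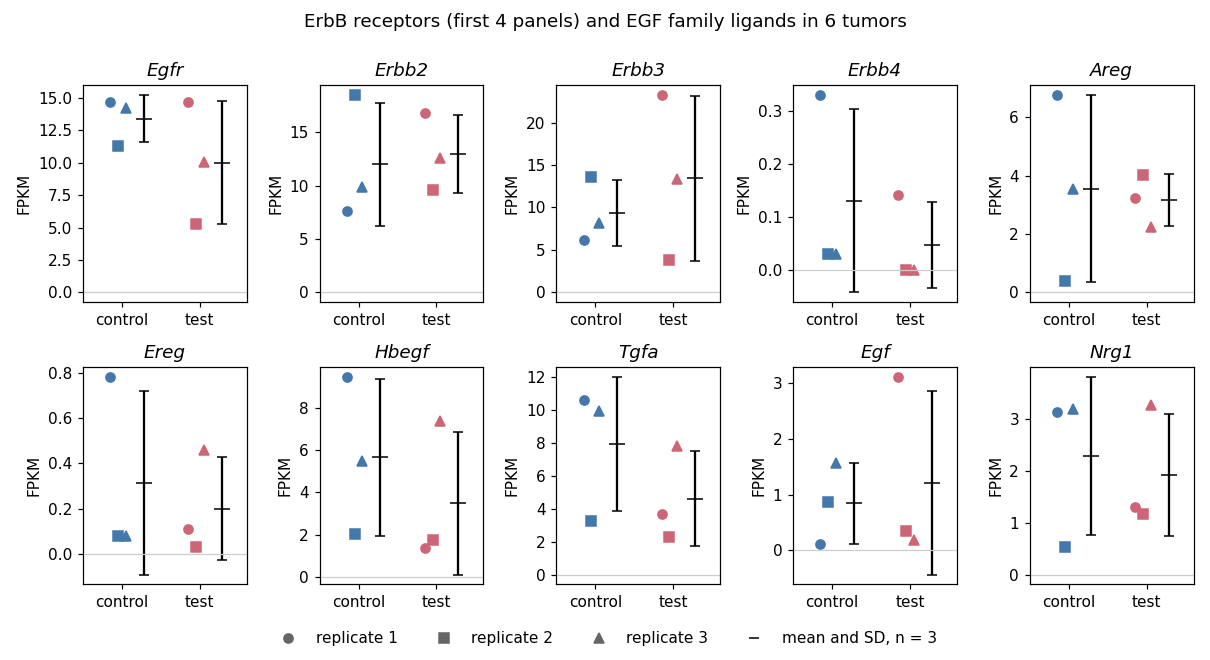
FPKM (level per length and depth, y axis) of the 10 genes in the control (blue) and test (red) tumors, each point 1 tumor with its shape giving the replicate, and bars giving the mean and SD of 3 tumors. The groups overlap in all 10 panels, and *Erbb4* and *Ereg* lie below 1 FPKM in every tumor.

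None of the 10 genes separated the groups. Of the 8 that passed the filter on low counts, 0 passed an adjusted p of 0.05 (0% of all tested genes did), 0 had an unadjusted p under 0.05 (8.41% of all did), and in 0 the groups did not overlap (12.0% of all did not). The median log2 fold change of the 8 genes, test minus control, was -0.23, against 0.02 over all tested genes. Of the 8 fold changes 3 lay above 0 and 5 below. The lowest adjusted p in the family was 0.749, for *Tgfa*. Each tumor came from its own mouse, per the study, so p-values measure the spread between mice.

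*Egfr* (NCBI Gene 13649; chromosome 11, 16752203 to 16913907 on GRCm38, as for all positions here) encodes the receptor of EGF, TGF-alpha and amphiregulin. It stood at 14.7, 11.3 and 14.2 FPKM in control replicates 1, 2 and 3, and at 14.7, 5.25 and 10.1 FPKM in the test tumors. In FPKM, test replicate 1 was as high as the highest control, and test replicates 2 and 3 lay below every control. In CPM, the count relative to a library size scaled by TMM, the mean was 53.1 ± 24.5 in test and 74.9 ± 11.8 in control tumors (SD, n = 3 each). The log2 fold change was -0.50 (standard error 0.38, 95% confidence interval -1.37 to 0.38, adjusted p = 0.760 by the quasi-likelihood test of edgeR, adjusted after Benjamini and Hochberg over all tested genes). On CPM, test replicate 1 (76.9) lay below control replicates 1 (84.9) and 3 (77.9). On this scale, 1 of the 9 pairs of a test and a control tumor had the test tumor higher. The exact permutation test, two-sided over the 20 splits of the 6 tumors, gave p = 0.2, and 0.1 is the smallest it can give. *Egfr* was the only one of the 10 genes whose listed length differed between tumors, since its length is an average over transcripts. It ran from 5022 bases in test replicate 2 to 5607 bases in control replicate 2.

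*Erbb2* (NCBI Gene 13866; chromosome 11, 98412484 to 98437716) encodes the receptor without a ligand. Its levels were 7.61, 18.5 and 9.87 FPKM in the controls and 16.8, 9.54 and 12.6 FPKM in the test tumors. The highest of the 6 values was that of control replicate 2, and all 3 test tumors fell inside the range of the controls. The means were 65.4 ± 15.7 CPM in test and 59.8 ± 26.4 CPM in control tumors, with a log2 fold change of 0.13 (standard error 0.36, 95% confidence interval -0.71 to 0.97, adjusted p = 0.936, edgeR). Without control replicate 2 it was 0.55 (adjusted p = 0.483).

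*Erbb3* (NCBI Gene 13867; chromosome 10, 128567523 to 128589635), the neuregulin receptor with little kinase activity, ranged most widely among the abundant receptors. It read 6.22, 13.6 and 8.12 FPKM in the controls and 23.3, 3.81 and 13.3 FPKM in the test tumors. Test tumors held both the highest and the lowest of the 6 values, a span of 6.11-fold. Between the groups its log2 fold change was 0.53 (standard error 0.58, 95% confidence interval -0.82 to 1.87, adjusted p = 0.821, edgeR), from 53.9 ± 37.4 CPM in test and 37.4 ± 14.02 CPM in control tumors. It became 0.96 without test replicate 2 and -0.08 without test replicate 1.

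*Erbb4* (NCBI Gene 13869; chromosome 1, 68031884 to 69108576) was close to absent. It had 13 counts in control replicate 1, 1 count in each of the other controls, 5 counts in test replicate 1 and 0 counts in the remaining test tumors. The exact Poisson 95% intervals were 6.92 to 22.2 counts for the highest tumor and up to 3.69 counts for the tumors with 0, and cover counting error only. *Erbb4* did not pass the filter on low counts and was not tested, and at this depth a difference was not detectable.

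The receptors therefore made up different mixtures from tumor to tumor. *Egfr* gave 50.9%, 26.1% and 44.1% of the summed FPKM of the 4 receptors in the controls, and 26.8%, 28.2% and 28.0% in the test tumors. The share in control replicate 2 was lower than in any test tumor, while the other controls lay higher. *Erbb3* gave 21.6%, 31.4% and 25.2% in the controls and 42.4%, 20.5% and 37.1% in the test tumors. *Erbb2* ran between 26.4% and 51.3% and was the largest share in control replicate 2 and test replicate 2. No receptor share was tested between the groups.

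**Figure D2:**
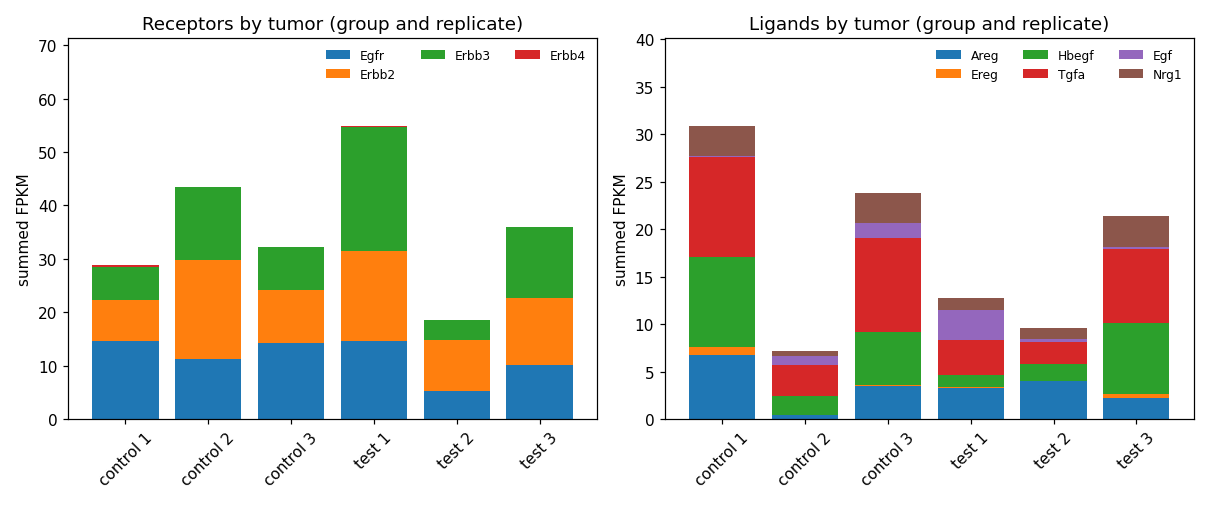
Summed FPKM (y axis) of the receptors, left, and of the 6 ligands, right, in each tumor (x axis, group and replicate), with colors for the genes; *Erbb4* is barely visible. Ligands sum to over 20 FPKM in control replicates 1 and 3 and test replicate 3, and to under 13 FPKM in the other tumors.

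Among the ligands, *Tgfa* (NCBI Gene 21802; chromosome 6, 86195038 to 86275744), which encodes the EGFR ligand TGF-alpha, was the most abundant by median. Its levels were 10.6, 3.26 and 9.95 FPKM in the controls and 3.67, 2.28 and 7.83 FPKM in the test tumors. Control replicates 1 and 3 and test replicate 3 were high, and the other tumors were low. The means were 19.6 ± 12.3 CPM in test and 34.3 ± 18.5 CPM in control tumors, with a log2 fold change of -0.80 (standard error 0.58, 95% confidence interval -2.16 to 0.55, adjusted p = 0.749, edgeR). Of the 9 pairs, 2 had the test tumor higher, and the exact permutation test, two-sided, gave p = 0.3.

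*Hbegf* (NCBI Gene 15200; chromosome 18, 36504927 to 36515805), a ligand of EGFR and ERBB4 that keratinocytes and macrophages also make, had the same tumors on top. It read 9.48, 2.01 and 5.51 FPKM in the controls and 1.34, 1.74 and 7.41 FPKM in the test tumors. The difference between the groups, a log2 fold change of -0.72 (standard error 0.80, 95% confidence interval -2.57 to 1.14, adjusted p = 0.824, edgeR), was smaller than its standard error. The CPM means were 8.45 ± 8.15 in test and 13.9 ± 9.88 in control tumors. Without test replicate 3, the log2 fold changes were -1.87 for *Hbegf* (unadjusted p = 0.0419, adjusted p = 0.635, edgeR) and -1.42 for *Tgfa* (unadjusted p = 0.0491, adjusted p = 0.647).

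*Nrg1* (NCBI Gene 211323; chromosome 8, 31807452 to 32891609), the ligand of ERBB3 and ERBB4, was high and low in the same tumors. Its FPKM was 3.14, 0.53 and 3.19 in the controls and 1.31, 1.16 and 3.27 in the test tumors. It gave a log2 fold change of -0.27 (standard error 0.75, 95% confidence interval -2.01 to 1.48, adjusted p = 0.936, edgeR), with 4.04 ± 2.48 CPM in test and 4.88 ± 3.30 CPM in control tumors.

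*Areg* (NCBI Gene 11839; chromosome 5, 91139599 to 91148432), the amphiregulin of the pubertal gland, had 74, 4 and 38 counts in the controls and 32, 41 and 25 in the test tumors. These correspond to 6.76, 0.38 and 3.53 FPKM, and to 3.23, 4.02 and 2.23 FPKM. The controls held both the highest and the lowest value, and the test tumors lay close together between them. The Poisson interval of the 4 counts in control replicate 2 was 1.09 to 10.2 counts and ended below that of every other tumor. Its log2 fold change was -0.20 (standard error 0.87, 95% confidence interval -2.22 to 1.82, adjusted p = 0.961, edgeR). The difference of the mean log2 levels had the opposite sign, 0.31, so no direction could be given.

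*Egf* (NCBI Gene 13645; chromosome 3, 129677574 to 129755322) varied more than any other tested member. It had 5, 37 and 68 counts in the controls and 125, 14 and 8 in the test tumors, which is 0.11, 0.86 and 1.56 FPKM against 3.11, 0.34 and 0.18 FPKM. Test replicate 1 was the highest and the other test tumors lay below 2 of the controls. This gave a log2 fold change of 0.52 (standard error 1.15, 95% confidence interval -2.17 to 3.20, adjusted p = 0.916, edgeR) and became -1.62 without test replicate 1. Epiregulin (*Ereg*, NCBI Gene 13874; chromosome 5, 91074617 to 91093649) had 30, 3 and 3 counts in the controls and 4, 1 and 18 in the test tumors. It did not pass the filter and was not tested, and its highest and next highest tumors belonged to different groups.

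**Figure D3:**
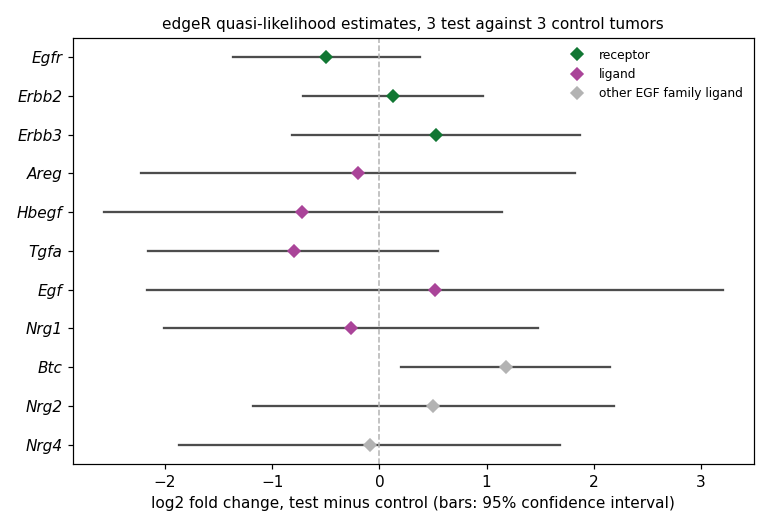
Log2 fold change, test minus control (x axis), of the 8 tested family genes (green receptors, purple ligands) and 3 further ligands of the EGF family (gray) on the y axis, with bars for the 95% confidence interval from 3 against 3 tumors. All 8 intervals of the family genes span 0, and that of *Btc* runs from 0.20 to 2.15.

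The intervals went with the spread within groups. On the log2(CPM + 0.5) scale, the SD within groups was 0.54 for *Egfr* and 0.48 for *Erbb2*, near the median of 0.45 over all tested genes. It was 0.92 for *Tgfa*, 0.96 for *Erbb3*, 1.03 for *Nrg1*, 1.19 for *Hbegf*, 1.22 for *Areg* and 1.66 for *Egf*. Of all tested genes, 98.2% varied less than *Egf*, 94.4% less than *Areg* and 94.0% less than *Hbegf*. The receptor *Erbb3* (89.0%) varied about as much as the ligand *Tgfa* (87.9%), and the further ligand *Btc* (39.1%) varied less than *Egfr* (62.8%) and *Erbb2* (55.1%). *Areg* and *Nrg1*, with counts below 100 in every tumor, and *Egf*, with counts below 100 in most, also carry a larger counting error than *Egfr*, *Erbb2* and *Erbb3*. In control replicate 2 and test replicates 1 and 2, *Nrg1* had 10, 23 and 21 counts and *Hbegf* had 43, 27 and 36.

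A set of high tumors was common to 3 of the 5 tested ligands. *Hbegf*, *Tgfa* and *Nrg1* had the same 3 highest tumors, control replicates 1 and 3 and test replicate 3, a pattern chosen after the values were seen and held by 7.62% of all tested genes. *Areg*, *Egf* and the receptors did not have it. The summed FPKM of the 6 ligands was 30.9 and 23.8 in control replicates 1 and 3 and 21.4 in test replicate 3, and 7.12, 12.8 and 9.57 in control replicate 2 and test replicates 1 and 2. The group label therefore did not divide the tumors with high ligand levels from those with low levels. On CPM, control replicates 1 and 3 were the lowest tumors of *Erbb2*, whereas in FPKM test replicate 2 lay below control replicate 3.

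**Figure D4:**
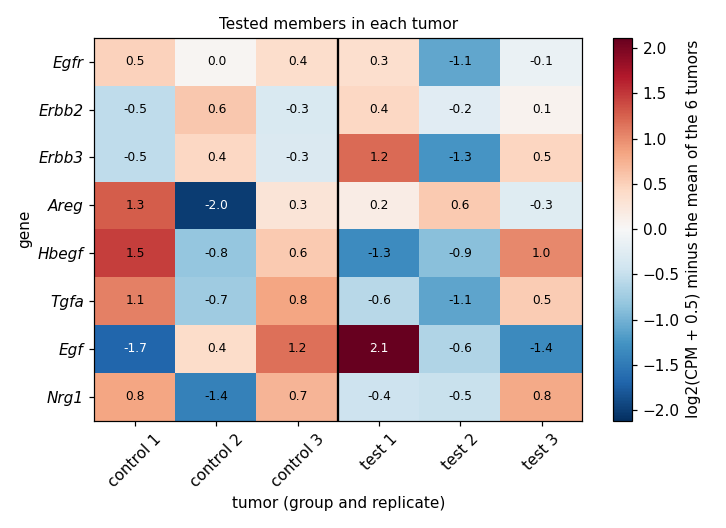
Log2(CPM + 0.5) of each tested family gene (rows) in each tumor (columns, group and replicate) minus the mean of the 6 tumors, in red where higher and blue where lower. *Hbegf*, *Tgfa* and *Nrg1* are red in control replicates 1 and 3 and test replicate 3, and blue in the remaining tumors.

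Outside the 10 genes, 5 further ligands of the family were measured, and *Btc* was the one with the clearest separation. Betacellulin (*Btc*; chromosome 5, 91357261 to 91402994) binds EGFR and ERBB4. It stood at 3.24, 4.22 and 4.69 CPM in the controls and at 9.11, 6.10 and 12.3 CPM in the test tumors. Every test tumor lay above every control, in 9 of 9 pairs, with means of 9.17 ± 3.10 and 4.05 ± 0.738 CPM (SD, n = 3 each). The log2 fold change was 1.18 (standard error 0.42, 95% confidence interval 0.20 to 2.15), with an unadjusted p of 0.0241 and an adjusted p of 0.505 (edgeR, Benjamini-Hochberg). *Btc* thus did not pass the threshold over all genes, and 12.0% of tested genes separated the groups in the same sense of no overlap. The neuregulin genes *Nrg2* (log2 fold change 0.50, adjusted p = 0.860) and *Nrg4* (-0.09, adjusted p = 0.978) overlapped between groups. Epigen (*Epgn*), an EGFR ligand, had 28, 6 and 25 counts in the controls and 7, 2 and 7 in the test tumors and was not tested. *Nrg3*, at most 5.24 counts in a tumor, was not tested either.

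The ligand genes *Epgn*, *Ereg*, *Areg* and *Btc* lie side by side on chromosome 5 between 91027517 and 91402994. Neighbors in this cluster did not share their order of tumors: *Btc* was lowest in control replicate 1, where *Epgn*, *Ereg* and *Areg* were each highest. The 30 tested genes within 2 Mb of *Areg* had a median difference of between -0.20 and 0.14 (log2) from the other tumors in each of the 6. The 250 bases before the start of *Epgn*, *Areg* and *Btc* are shown because the levels of these neighbors were ordered differently over the tumors (RefSeq, GRCm38.p6). They span chr5:91027267-91027516 on the plus strand, chr5:91139349-91139598 on the plus strand and chr5:91402995-91403244 on the minus strand, each written 5′ to 3′ on the strand of its gene. Capitals mark matches to the motifs described after them.
Epgn: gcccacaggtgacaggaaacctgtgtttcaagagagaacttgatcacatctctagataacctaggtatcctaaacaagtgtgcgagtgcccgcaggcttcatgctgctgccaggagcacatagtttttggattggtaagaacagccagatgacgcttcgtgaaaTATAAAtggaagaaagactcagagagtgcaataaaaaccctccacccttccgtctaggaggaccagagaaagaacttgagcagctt
Areg: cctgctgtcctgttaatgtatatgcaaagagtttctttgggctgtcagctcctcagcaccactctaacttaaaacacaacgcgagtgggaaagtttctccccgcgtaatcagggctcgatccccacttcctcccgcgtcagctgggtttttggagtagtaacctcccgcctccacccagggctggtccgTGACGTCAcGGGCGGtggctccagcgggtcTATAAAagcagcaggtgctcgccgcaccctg
Btc: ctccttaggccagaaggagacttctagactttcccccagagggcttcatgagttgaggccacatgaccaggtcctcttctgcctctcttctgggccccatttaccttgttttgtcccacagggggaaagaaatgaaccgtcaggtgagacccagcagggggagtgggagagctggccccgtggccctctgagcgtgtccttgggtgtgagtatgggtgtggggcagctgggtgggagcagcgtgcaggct
The motifs searched on both strands were the cAMP response element (CRE, TGACGTCA), the AP-1 site (TGANTCA), the GC box (GGGCGG) and the TATA box (TATAAA). *Areg* held a CRE from 61 to 54 bases, a GC box from 52 to 47 bases and a TATA box from 31 to 26 bases before its start. *Epgn* held a TATA box from 86 to 81 bases before its start, and *Btc* held none of the 4 motifs. Of 32851 windows of this length before gene starts, 1.5% held the CRE, 6.7% the AP-1 site, 32.7% the GC box and 12.4% the TATA box. These are matches of letters in a window and were not related to the levels by any test.

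The other genes of the pathway were described by lists, 61 genes in all, of which 58 were tested. At an adjusted p of 0.05, 0 of the 58 passed. At an unadjusted p under 0.05, 2 were higher and 5 lower in test tumors (8.41% of all tested genes), and 4 were higher and 4 lower without overlap of the groups (12.0% of all). Their median log2 fold change was -0.25, with 20 above and 38 below 0, against 0.02 over all tested genes.

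Proteases and adaptors gave no gene with an unadjusted p under 0.05. The 4 genes for ligand shedding had a median log2 fold change of -0.12. Of these *Adam10*, which cuts betacellulin and EGF free, had the highest level, 179.9 ± 35.3 CPM in test and 214.0 ± 21.1 CPM in control tumors (log2 fold change -0.25, adjusted p = 0.807, edgeR). Of the 7 adaptors (median -0.06), *Grb2*, which links receptors to the Ras exchange factor SOS, read 121.4, 131.7 and 104.1 CPM in the controls and 99.2, 85.3 and 398.5 CPM in the test tumors. A single tumor, test replicate 3, carried the difference of 0.71 (adjusted p = 0.774, edgeR), which was -0.36 without it. The 77 tested genes within 2 Mb of *Grb2* were higher in that tumor as well, by a median of 1.46 (log2) over the other tumors, beside 1.93 for *Grb2* itself.

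All 6 genes listed as receptor-level inhibitors had a log2 fold change below 0, with a median of -0.49, and 1 had an unadjusted p under 0.05. Over all tested genes, 6648 of 13706 lay below 0, 8.41% had an unadjusted p under 0.05 and 12.0% did not overlap between the groups. *Lrig3* was listed as a relative of *Lrig1*, whose protein lowers ErbB receptor levels, and its own effect on the receptors was not tested. It stood at 26.9, 16.3 and 28.5 CPM in the controls and 15.6, 13.2 and 6.58 CPM in the test tumors. Each test tumor lay below each control, by a margin of less than 1 CPM at the closest pair. The log2 fold change was -1.02 (standard error 0.41, unadjusted p = 0.0375, adjusted p = 0.551, edgeR).

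In the Ras-ERK cascade, 9 of 9 genes were tested and the median log2 fold change was 0.16. *Hras* and *Nras*, which encode small GTPases of the Ras family, were higher in every test tumor than in every control. In the list, 3 genes were higher and 1 lower without overlap, and 12.0% of all tested genes did not overlap. An unadjusted p under 0.05 was found for 1 gene of the list (8.41% of all). *Hras* read 48.6, 54.9 and 60.7 CPM in the controls and 103.7, 89.6 and 64.0 CPM in the test tumors. Its log2 fold change was 0.65 (standard error 0.26, unadjusted p = 0.0408, adjusted p = 0.556, edgeR). For *Nras* the log2 fold change was 0.46 (unadjusted p = 0.0693), and neither gene passed the adjusted threshold. The 8 genes of the PI3K-AKT cascade had a median of -0.32 and none had an unadjusted p under 0.05. *Pik3r1*, the regulatory subunit with the highest level among them, was at 514.8 ± 214.6 CPM in test and 532.5 ± 63.8 CPM in control tumors (adjusted p = 0.976, edgeR).

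Genes that ERK signaling is known to induce had the lowest median of the lists, -0.57, with 14 of 16 below 0 (6648 of 13706 over all tested genes) and 3 lower at an unadjusted p under 0.05 (721 of 13706 lower, and 8.41% in either direction, over all). *Etv5*, an ETS transcription factor downstream of ERK, stood at 1209, 168.7 and 735 CPM in the controls and 167.2, 132.0 and 211.1 CPM in the test tumors. Control replicates 1 and 3 were high, and control replicate 2 lay within the test tumors. The log2 fold change was -2.05 (standard error 0.64, unadjusted p = 0.0136, adjusted p = 0.460, edgeR), -2.51 (adjusted p = 0.0353) without control replicate 2 and -1.41 (adjusted p = 1.0) without control replicate 1.

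*Spry1*, a feedback inhibitor of receptor tyrosine kinase signaling, read 120.7, 22.3 and 82.4 CPM in the controls and 32.5, 22.0 and 29.1 CPM in the test tumors. Its log2 fold change was -1.43 (standard error 0.55, unadjusted p = 0.0337, adjusted p = 0.545, edgeR), -1.86 (adjusted p = 0.0496) without control replicate 2 and -0.91 (unadjusted p = 0.130) without control replicate 1. Without control replicate 3 or any test tumor, its unadjusted p ran from 0.0587 to 0.107. The immediate early gene *Egr1* was at 211.2, 164.4 and 156.7 CPM in the controls and 77.3, 65.9 and 141.8 CPM in the test tumors, without overlap (log2 fold change -0.90, standard error 0.34, unadjusted p = 0.0311, adjusted p = 0.533, edgeR). Of the ERK feedback and target genes, 1 of 16 did not overlap between the groups, against 12.0% of all tested genes.

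The 3 tumors highest in *Hbegf*, *Tgfa* and *Nrg1* were also the highest for some genes of this list. In 6 of its 16 genes, *Dusp6*, *Spry4*, *Etv4*, *Etv5*, *Fosl1* and *Ccnd1*, the 3 highest tumors were control replicates 1 and 3 and test replicate 3. Over all tested genes the share was 7.62%. *Map2k1*, a kinase of the Ras-ERK list, also had these 3 tumors highest. These genes were named after their values were seen. In *Etv5*, test replicate 3 stood at 211.1 CPM, close to the 168.7 CPM of control replicate 2, so its place in this set rested mainly on the high controls.

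**Figure D5:**
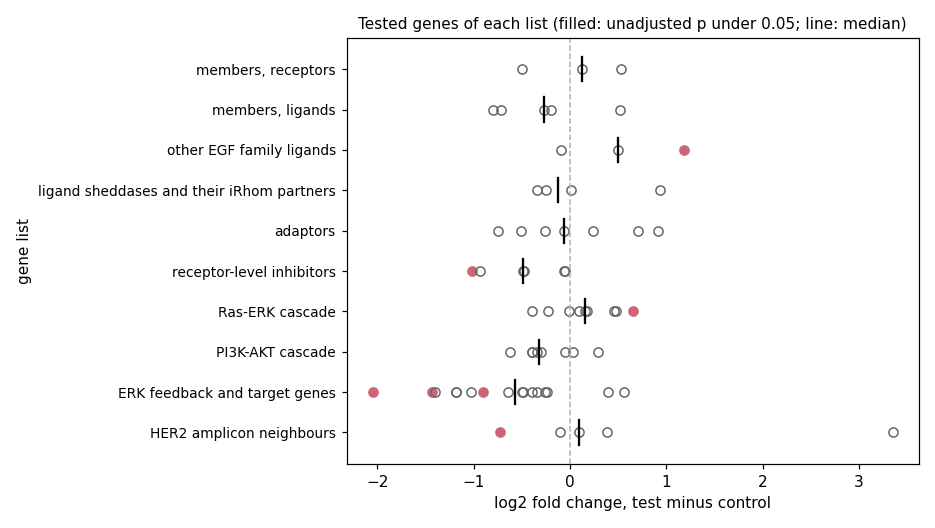
Log2 fold change, test minus control (x axis), of every tested gene in each list (y axis), filled where the unadjusted p is under 0.05, with a vertical bar at the median of the list. ERK feedback and target genes have the lowest median, -0.57, and no family gene is filled.

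Lastly, the genes that flank *Erbb2* in the human HER2 amplicon were examined beside it. Of 6, 5 were tested, with a median log2 fold change of 0.09, and *Pnmt* had 0 counts in every tumor. *Grb7*, an adaptor that lies next to *Erbb2*, was highest in control replicate 2 (43.2 CPM), the tumor with the highest *Erbb2* (90.0 CPM). It was lowest in control replicates 1 and 3 (14.5 and 15.5 CPM), where *Erbb2* was lowest too on CPM. *Mien1* was also highest in control replicate 2 (97.8 CPM), whereas *Pgap3* (39.6 CPM) and *Tcap* (17.6 CPM) were highest in test replicate 1. *Stard3*, a cholesterol carrier, read 37.8, 60.1 and 43.9 CPM in the controls and 27.2, 35.3 and 23.3 CPM in the test tumors, without overlap (log2 fold change -0.73, standard error 0.29, unadjusted p = 0.0388, adjusted p = 0.553, edgeR). In this list 1 of the 5 tested genes had an unadjusted p under 0.05 (8.41% over all tested genes). Likewise, 1 did not overlap between the groups (12.0% over all). *Tcap*, a sarcomere gene, had the largest fold change of the list (3.35, unadjusted p = 0.0553, adjusted p = 0.606), beside the higher skeletal muscle markers of the test tumors. In control replicate 2, *Erbb2* exceeded the median of the other tumors by 0.82 (log2), while the 72 tested genes within 2 Mb had a median difference of 0.25. Over the 6 tumors this median ran from -0.24 to 0.25.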

How the data were processed

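RNA was extracted from 6 tumors, and libraries were made and sequenced at BGI with Illumina protocols. Reads were aligned to mm10, and the submitters' processing notes name Bowtie, BWA and RSEM, with versions not given in the sources used here. In 1 table per tumor the authors deposited, by gene, the expected count, an estimate of its reads without normalization. Beside it, the authors deposited an FPKM, normalized for length and depth, and the gene length in bases. About 79.0% to 80.1% of the expected counts were whole numbers (within 0.005). A gene not listed for a tumor was set to 0. Of 18460 genes, the NCBI Gene identifier matched 18400 to GRCm38 and a transcript matched 13 more, which left 47 without a position. Depth is given as the total expected counts per tumor, and a floor of 3 counts and the exact Poisson intervals cover counting error only.

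Rounded expected counts went into edgeR 4.0.16 under R 4.3.3 (filterByExpr, TMM, quasi-likelihood test of 3 test against 3 control tumors without covariates, Benjamini-Hochberg adjustment over all 13706 tested genes, threshold 0.05). The script was tested on simulated data. TMM left the median log2 fold change at 0.018. The standard error is the size of the log2 fold change divided by the square root of F. Exact permutation tests were two-sided on the mean of log2(CPM + 0.5). Alternatives were DESeq2 1.42.0, RLE factors, no filter, a minimum of 10 counts throughout, limma-trend (limma 3.58.1) with a pseudocount of 1 or 0.1 on FPKM (mean FPKM 1 or more), a replicate block, and leaving out each tumor.

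The family, the pathway lists and the tests were chosen with earlier results of these data known. Genes named are the 10 of the family, *Tslp*, and in each list up to 4 genes with an unadjusted p under 0.05, or otherwise the gene with the highest mean CPM. *Btc*'s relatives *Nrg2*, *Nrg3*, *Nrg4* and *Epgn*, and *Nras*, *Grb7*, *Mien1*, *Pgap3*, *Tcap*, *Pnmt*, *Rhbdf2* and the genes named for their order of tumors were named after their values were seen. Differences by position compare log2(CPM + 0.5) in a tumor with the median of the other tumors, over at least 10 tested genes within 2 Mb, and were added after the data were seen. Of the family, 6 of 10 genes had a promoter window. Some genes of the pathway lists are counted in them but not reported here by name.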

Additional observations from a re-analysis of the deposited data

How the results depend on the processing

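With 3 tumors a group and the wide spread of the ligands, the confidence intervals of the tested family genes reach past a 2-fold change, except that of *Erbb2*, and depth limits *Erbb4* and *Ereg*. No family gene passed an adjusted p of 0.05 under any of the 13 alternatives. Over all genes, the number at that threshold was 0 with edgeR and 0 under the other alternatives, except 313 with DESeq2, 1 with limma-trend on log2(FPKM + 1), and 0 to 182 when 1 tumor was left out, the 182 without control replicate 2. The number with an unadjusted p under 0.05 ran from 654 (without control replicate 1) to 2020 (without control replicate 2), with 701 without control replicate 3, against 1153. Of the other pathway genes, DESeq2 called 1 (*Etv5*, adjusted p = 0.0375) and leaving out 1 tumor 0 to 2 (*Etv5* and *Spry1*, without control replicate 2). At an unadjusted p under 0.05 there were 11 with DESeq2 and 2 to 13 when 1 tumor was left out (2 without control replicate 1 or 3, 13 without control replicate 2), against 7. For the family this number was 0, and 0 to 2 when 1 tumor was left out (*Hbegf* and *Tgfa*, without test replicate 3). The causes were not tested. The replicate numbers were not taken as pairs in the main fit, since the tumors came from different mice. The deviations of tumors with the same number from their group means correlated at -0.025, 0.121 and -0.137. For tumors with different numbers these correlations ran from -0.162 to 0.218, so they cannot decide whether a number marks shared handling. With the replicate block, 0 genes passed the adjusted threshold and *Areg* (0.25) and *Egf* (-0.40) changed sign, and the block changed no call at the adjusted threshold.

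Fold changes of 5 family genes changed sign under some alternative, none of them called. *Areg* was 0.17 with limma-trend on log2(FPKM + 1) and 0.47 with a pseudocount of 0.1, and -0.74 to 0.74 when 1 tumor was left out (0.74 without control replicate 1, 0.02 without test replicate 3). *Egf* ran from -1.62 to 1.29, *Erbb2* from -0.08 to 0.55 (-0.08, -0.01 and -0.07 without control replicate 1, control replicate 3 and test replicate 1), *Erbb3* from -0.08 to 0.96, and *Nrg1* from -0.88 to 0.09. *Egfr* (-0.86 to -0.19), *Hbegf* (-1.87 to -0.05) and *Tgfa* (-1.42 to -0.48) stayed below 0 in each. Outside the family, *Grb2* was -0.36 to 1.07 and *Pik3r1* -0.38 to 0.23 (0.00 without control replicate 3). *Btc* stayed at 0.76 (limma-trend on log2(FPKM + 1)) to 1.40, *Etv5* at -2.51 to -1.41 and *Spry1* at -1.86 to -0.91. The unadjusted p of *Btc* (edgeR) rose to 0.0850 without control replicate 1 and to 0.0968 without test replicate 3. *Hras*, *Lrig3*, *Egr1*, *Stard3* and *Etv5* kept their sign, but their unadjusted p did not stay under 0.05 throughout. When 1 tumor was left out, it reached 0.129 for *Hras* and 0.0962 for *Egr1* (without control replicate 1, edgeR). It reached 0.114 for *Lrig3* (without control replicate 3), 0.132 for *Stard3* (without test replicate 3) and 0.0556 for *Etv5* (without test replicate 2). With the replicate block it was 0.0753 for *Hras* and 0.0582 for *Lrig3*. *Areg* and *Egf* could not be fitted at a minimum of 10 counts in every tumor, and *Erbb4* and *Ereg* had no tested value.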

Other observations

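*Grb2* and *Rhbdf2*, which encodes an iRhom partner of the protease ADAM17, lie on the distal part of chromosome 11, and both were highest in test replicate 3 (398.5 and 157.7 CPM, against 85.3 to 131.7 and 25.4 to 74.7 CPM in the other tumors). The 149 tested genes that start between 115 and 122 Mb of this chromosome (GRCm38) had a median difference of 1.42 (log2) in this tumor from the median of the other tumors, and 107 of them were at least 1 higher. In the other 5 tumors the same median ran from -0.22 to 0.18. Over the genome, 170 of 12574 genes with enough tested neighbors (1.35%) had neighbors within 2 Mb at a median of 1 or more in test replicate 3, against 7 in control replicate 1 and 0 in each of the other tumors. *Erbb2* and *Egfr*, on the same chromosome, lie outside this stretch, and the neighbors of *Erbb2* had a median of -0.24 in test replicate 3. The stretch was noticed after the values were seen, and no cause was tested.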
